A study of Mus musculus with 12 samples.

Results

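Cycle-exiting neuronal intermediate progenitors of the P7 mouse dentate gyrus were taken from 3 single-cell RNA libraries as cells that carried the intermediate progenitor program with few or no transcripts of a set of cell cycle genes. A cell was a member when it had more than 500 genes, less than 15% mitochondrial UMIs (unique molecular identifiers, each counting 1 captured RNA molecule), at least 1 UMI of Eomes, UMIs of at least 2 of the 6 progenitor genes Neurog2, Mfap4, Neurod4, Mfng, Insm1 and Dll3, and UMIs of at most 1 of the 8 cycle genes Mki67, Top2a, Cenpf, Cenpa, Ube2c, Birc5, Cdk1 and Rrm2. This rule found 1694 members among 24213 cells. The members were thus selected on their own counts of these 15 genes. There were 502 in the wild-type library, 560 in the library of Larp7 f/f;nestin-Cre mice (nestin-Cre below) and 632 in that of Larp7 f/f;Emx1-Cre mice (Emx1-Cre below). The wild-type animals were, per the study's text, Larp7-floxed mice without Cre, so that all 3 groups share the floxed allele, in which loxP sites flank exon 9 of the 13 exons of the longest annotated Larp7 transcript. Nestin-Cre acts in neural stem and progenitor cells throughout the nervous system, and Emx1-Cre, a Cre placed in the Emx1 locus, acts in the dorsal telencephalon. Each library pooled 3 to 4 dentate gyri of littermates, with 1 library per genotype. No difference between genotypes could therefore be tested across animals, and the intervals given are 95% intervals that cover counting error only.

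Granule neurons of the dentate gyrus arise from radial glia-like stem cells through Eomes-positive neuronal intermediate progenitors, which divide and then leave the cell cycle to become neuroblasts. At this step proneural factors of the Neurog and Neurod families follow each other and drive neuronal genes, while Notch ligands on committed cells act on their neighbours to hold them as stem cells. Larp7 binds and stabilizes the 7SK small nuclear RNA, which with Hexim1 or Hexim2 holds P-TEFb, the Cdk9 and cyclin T kinase that releases paused RNA polymerase II, in an inactive complex.

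The 3 libraries held between 26689878 and 28918491 UMIs over 6821 to 12876 barcodes. The median cell that passed the filter held 1782 UMIs in the wild-type library, 3644 in the nestin-Cre library and 3873 in the Emx1-Cre library. Between 30 and 42 barcodes of a library were also present in another, and 1, 5 and 3 of these belonged to members. The titles and the genotype entries of the mutant libraries name opposite Cre drivers, and the titles, which match the file names, were followed. The study states more cells for nestin-Cre than for Emx1-Cre, which is the order of the barcodes under the titles. Emx1 itself, the gene that carries the Cre in the Emx1-Cre line, measured 304.8 CPM (UMIs per 1000000 UMIs summed over the members of a library) in wild-type members, 322.3 in the library titled nestin-Cre and 181.2 in the library titled Emx1-Cre, which is 0.75 log2 units below wild-type (Emx1 log2 ratio -0.75). The libraries also differed in sex makeup, with Xist at 940.5, 975.1 and 482.8 CPM in wild-type, nestin-Cre and Emx1-Cre members.

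The members carried all 7 genes by which the class is known, of which Tac2 and Nhlh1 were not used to choose them. Eomes, the T-box factor that defines intermediate progenitors, was present in every member by the rule, at 506.6 CPM in wild-type, 585.0 in nestin-Cre and 573.2 in Emx1-Cre members. Among the genes of the rule, Mfap4, a microfibril-associated protein, was detected in 84.2% to 86.1% of members, Insm1, a zinc finger repressor of progenitor genes, in 41.4% to 51.6%, and Dll3, a Delta-like protein that acts within the cell, in 21.5% to 32.3%. Neurod4, a basic helix-loop-helix factor, was detected in 25.9% of wild-type, 33.8% of nestin-Cre and 35.4% of Emx1-Cre members. These shares describe the selection and depend on the depth of a cell, and no test was made on them.

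Tac2, which encodes neurokinin B, measured 1143.4 CPM (1096.5 to 1191.8) in wild-type, 1161.1 (1120.1 to 1203.3) in nestin-Cre and 866.2 (832.4 to 900.9) in Emx1-Cre members. It was the lowest in the Emx1-Cre library, 0.40 log2 units under wild-type (log2 ratio -0.40, interval -0.48 to -0.32), while the nestin-Cre and wild-type levels lay within each other's counting error. Nhlh1, a basic helix-loop-helix factor of newly born neurons, measured 71.2 (59.9 to 84.1), 83.2 (72.5 to 95.1) and 99.5 (88.3 to 111.7) CPM in the same order, and its nestin-Cre log2 ratio to wild-type lay between -0.22 and 0.39 over the settings tried. Its level was the highest in the Emx1-Cre library (log2 ratio 0.48, interval 0.19 to 0.79). With every member thinned to 1500 UMIs, Tac2 was present in 55.0%, 55.0% and 47.6% of wild-type, nestin-Cre and Emx1-Cre members against 17.1%, 4.07% and 3.04% of microglia of the same libraries. Microglia do not make Tac2, so the microglial shares measure RNA from other cells (background RNA below), and the wild-type share was the highest. Such RNA can be free in the droplets or come from droplets that held several cells, and these were not told apart. Nhlh1 was present in 12.5%, 11.2% and 14.0% of thinned members against 1.39%, 0.226% and 1.14% of microglia.

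Proneural factors bind E-boxes. The promoters of Tac2, Nhlh1 and Dll3 are shown because they are the genes of the class label in which the search found an E-box. Tac2 and Nhlh1 did not choose the members, whereas Dll3 is a gene of the rule. The hexamers CAGATG (on the other strand CATCTG) and CAGCTG, E-boxes of the kind that Neurog and Neurod factors bind, were searched on both strands in the 250 bases before each annotated start in RefSeq (GRCm38.p6). Of 11 lineage genes looked up 9 had an entry, and 5 of these (Dll3, Tac2, Nhlh1, Gadd45g and Hes6) held at least 1 E-box. Of all 32851 promoters 14.4% held CAGATG and 13.0% held CAGCTG, and 25.5% held either. The windows read 5′ to 3′ on the strand of the gene, with the E-box in capitals, which begins 22, 203 and 7 bases before the start of Tac2 (chr10:127724426-127724477, + strand), Nhlh1 (chr1:172057764-172057829, - strand) and Dll3 (chr7:28301786-28301822, - strand).
Tac2: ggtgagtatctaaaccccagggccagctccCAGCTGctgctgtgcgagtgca
Nhlh1: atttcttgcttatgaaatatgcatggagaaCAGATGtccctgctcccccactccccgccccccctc
Dll3: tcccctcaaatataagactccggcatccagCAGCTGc
A match of 6 letters describes the window and does not show that a factor binds there. None of the promoters of Eomes, Neurod4, Neurog2 and Neurod1 in the table held these letters within 250 bases.

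**Figure D1:**
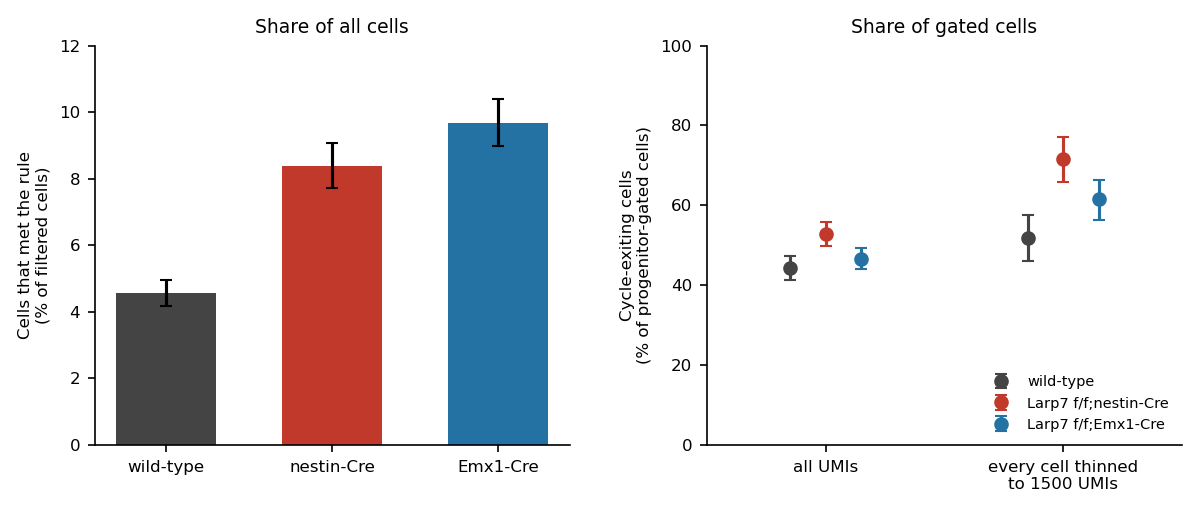
Left, cells that met the rule as percent of all filtered cells in each library, without thinning, with bars for the share and lines for exact binomial 95% intervals. Right, cycle-exiting cells as percent of progenitor-gated cells, with points for the share and lines for exact binomial 95% intervals, from all UMIs and with every cell thinned to 1500 UMIs. The right panel shows 44.3%, 52.8% and 46.6% before thinning and 51.8%, 71.6% and 61.5% after, in the order wild-type, nestin-Cre, Emx1-Cre.

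The share of progenitor-gated cells with at most 1 cycle gene is made of the counts that the rule used and compares 1 library per genotype, so it is given as a description, with intervals over cells, which are not replicates. Of the gated cells (Eomes and at least 2 progenitor genes), 502 of 1133 wild-type cells, 560 of 1060 nestin-Cre cells and 632 of 1355 Emx1-Cre cells had at most 1 cycle gene, which are shares of 44.3% (41.4 to 47.3), 52.8% (49.8 to 55.9) and 46.6% (44.0 to 49.3). The nestin-Cre share exceeded wild-type by 8.52 percentage points (4.28 to 12.7) and the Emx1-Cre share by 2.33 points (-1.65 to 6.31). A deeper cell shows more cycle genes, so the rule was applied again after each cell was thinned to 1500 UMIs, which left out 4785, 597 and 439 cells of the wild-type, nestin-Cre and Emx1-Cre libraries as too shallow. The shares were then 51.8% (46.1 to 57.5) of 309 wild-type cells, 71.6% (65.8 to 77.0) of 261 nestin-Cre cells and 61.5% (56.4 to 66.4) of 384 Emx1-Cre cells. At this matched depth both differences from wild-type were larger, at 19.9 points (11.7 to 27.7) for nestin-Cre and 9.68 points (2.05 to 17.2) for Emx1-Cre. The interval of wild-type did not overlap with that of nestin-Cre, and that of Emx1-Cre overlapped with both. The wild-type library holds more cells of few UMIs and, by Tac2 in microglia, more background RNA, and the part of either in this difference was not tested.

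As a share of all filtered cells, members made up 4.56% (4.18 to 4.97) of the wild-type, 8.38% (7.72 to 9.07) of the nestin-Cre and 9.68% (8.97 to 10.4) of the Emx1-Cre library. Cells with any Eomes UMI made up 21.0%, 26.3% and 29.1%. The median member held 3679 UMIs (3581 to 3797) in wild-type, 4162 (4078 to 4250) in nestin-Cre and 4140.5 (4070 to 4245) in Emx1-Cre, a ratio of 1.13 in both comparisons, and 1808, 1998.5 and 2016.5 genes. In the dividing cells of the same gate the medians were 4929, 5977.5 and 6076 UMIs, and in neuroblasts they were 1991, 3412 and 3647 UMIs. Microglia had medians of 1944, 3269 and 3437 UMIs, so that cells of every group were deeper in both mutant libraries.

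The members were not uniform, and the single cycle gene that the rule allows marked a graded difference. In the wild-type library 326 members had no cycle gene and 176 had 1, in the nestin-Cre library 374 and 186, and in the Emx1-Cre library 409 and 223. Just outside the limit lay 104, 90 and 99 gated cells with 2 cycle genes. From members with 0 to members with 1 and gated cells with 2 and with 3 or more cycle genes, the 51 DNA replication genes took 14.5, 26.0, 34.8 and 46.6 of every 10000 UMIs in the wild-type library. The same steps gave 14.2, 22.7, 33.1 and 50.9 in the nestin-Cre library and 15.5, 23.4, 28.9 and 50.2 in the Emx1-Cre library. Replication transcripts thus differed in steps on both sides of the limit, whereas mitosis genes that the rule did not use were high only in the cells with 3 or more cycle genes, at 93.2 per 10000 UMIs in wild-type cells with 3 or more against 13.8 with 2, 8.24 with 1 and 5.73 with 0.

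Neurod1, a proneural factor needed for granule neurons, ran the opposite way. Its level over the steps of 0, 1, 2 and 3 or more cycle genes was 982.3, 661.6, 372.4 and 344.8 CPM in wild-type cells, 1571.6, 1221.8, 777.2 and 521.1 in nestin-Cre cells and 1347.4, 1027.4, 775.6 and 493.3 in Emx1-Cre cells. At every step both mutant libraries lay above wild-type. Tac2 followed the same order in wild-type cells, at 496.8 CPM with 3 or more cycle genes and 1210.9 with 0, and Nhlh1 at 18.5 and 78.3. Sox2, the stem cell factor, was lower in the members without a cycle gene (214.3 CPM in wild-type) than in gated cells with 3 or more (375.7). Since all cells were placed on these steps by their own counts, the values are a description.

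**Figure D2:**
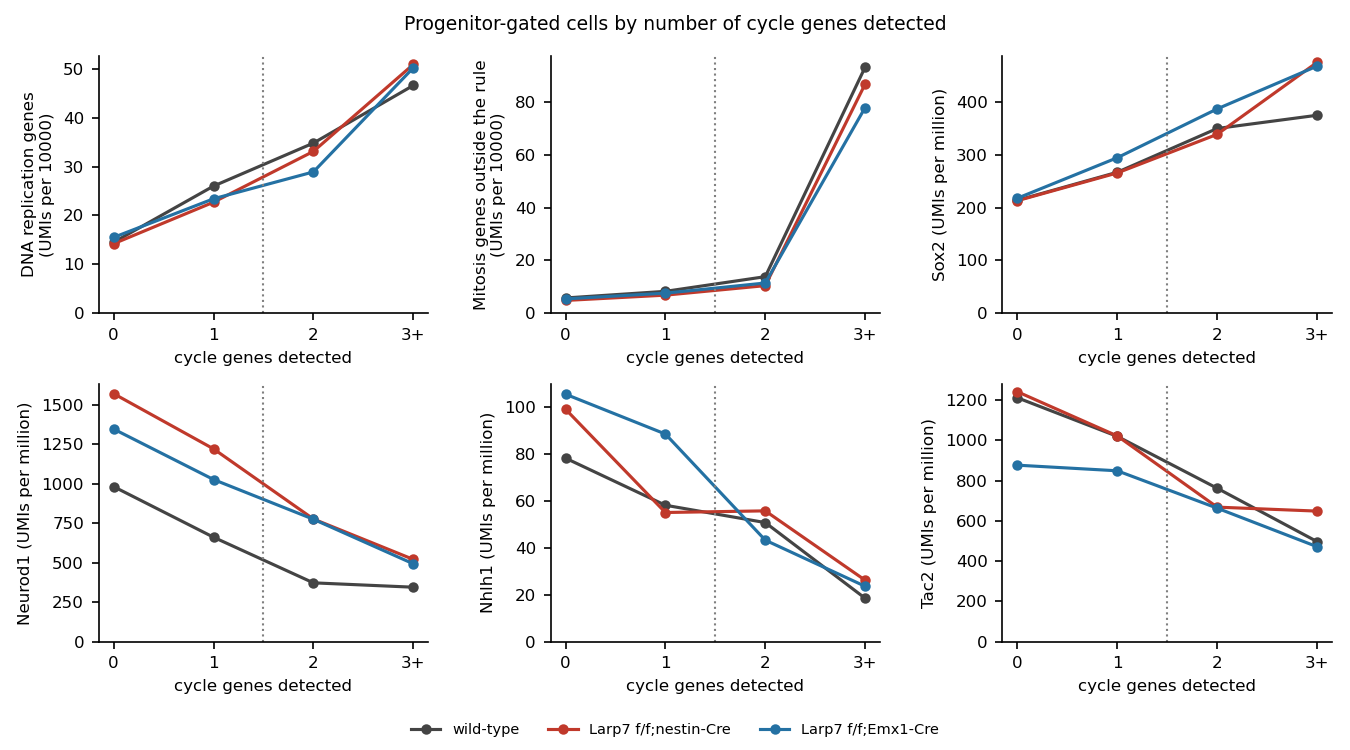
Levels in progenitor-gated cells by the number of the 8 cycle genes detected (x axis), per 10000 UMIs for gene groups and in CPM for single genes (y axes), 1 line per library, without error bars. Members lie left of the dotted line. DNA replication genes are higher with each added cycle gene, from 14.5 to 46.6 per 10000 in wild-type cells, while Neurod1 is lower, from 982.3 to 344.8 CPM.

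Against the dividing cells of the same gate, members had more RNA of neuronal genes and less of replication genes. Outside the 15 genes of the rule, 569 of 7898 genes (7.20%) with at least 100 UMIs over the members were at least 1.5-fold higher in members in all 3 libraries, and 296 (3.75%) were at least 1.5-fold lower. All 42 measured DNA replication genes were lower in members in every library, 35 of them at least 1.5-fold, as were all 7 measured mitosis genes outside the rule. In single libraries between 3063 and 3161 of the 7898 genes were lower in members. The genes lowest against dividing cells were Cks2, a cyclin-dependent kinase subunit of the divisions, with log2 ratios of -4.71, -4.39 and -4.52 in the wild-type, nestin-Cre and Emx1-Cre libraries, the replication-dependent histone genes Hist1h2ap and Hist1h1b, the kinetochore and condensin genes Spc24, Cenpm, Smc2 and Smc4, the mitotic inhibitor gene Fbxo5, H2afx, Hmgb2, Dbf4 and the noncoding RNA Lockd. These genes largely track the 8 cycle genes that separated the groups.

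On the other side 15 of 17 measured proneural and neurogenic factors outside the rule were higher in members than in dividing cells in all 3 libraries, 10 of them at least 1.5-fold. So were 25 of 29 neuronal differentiation genes, 17 of them at least 1.5-fold. Beside these, 7.20% of all genes were at least 1.5-fold higher in all 3 libraries. In single libraries 61.2%, 60.0% and 60.4% of all genes were higher in wild-type, nestin-Cre and Emx1-Cre members than in dividing cells. Nhlh2, the close relative of Nhlh1, had log2 ratios of 2.38, 2.45 and 2.19, and Nhlh1 of 1.67, 1.45 and 1.95. Neurod2, a later factor of the Neurod family, stood at 1.97, 2.02 and 1.81, and Tac2 at 1.11, 0.84 and 0.82. Adhesion and axon genes were among the highest, with Cntn2 (2.47, 2.76 and 2.01), the neural adhesion gene L1cam (2.77, 1.73 and 1.70), Sema6c, and the neuronal tubulin Tubb3 (1.89, 1.88 and 1.75), and the list was completed by Ifi203, Klhl35, Cygb, the potassium channel Kcna1, Plch2 and Cldn3. The rule gene Insm1 was on the other side, with log2 ratios of -1.10, -1.34 and -0.89. The rule gene Dll3 was higher in members (0.91, 1.16 and 0.99).

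Against neuroblasts (no Eomes UMI, at most 1 cycle gene and at least 4 of 9 neuroblast markers), members kept more replication and less neuronal RNA. Here 176 of 7898 genes (2.23%) were at least 1.5-fold higher in members in all 3 libraries and 231 (2.92%) at least 1.5-fold lower. Of the 42 DNA replication genes 37 were higher in members, 18 of them at least 1.5-fold, and of 29 neuronal differentiation genes, some of which chose the neuroblasts, 22 were lower, 10 of them at least 1.5-fold. In single libraries between 53.4% and 55.4% of all genes were higher in members than in neuroblasts. The genes highest in members were the receptor phosphatase Ptpru (log2 ratios 2.58, 3.14 and 3.53), Loxl1, the uracil DNA glycosylase Ung, the RNA-binding protein Rbm24, Tesc, Mpped1, the Slit receptor Robo2 and Myo1a. The lowest were the neuropeptide Gal (-2.32, -2.51 and -2.19), the guidance gene Sema5a (-2.64, -2.75 and -2.76), the NMDA receptor subunit Grin2b, the kinase subunit Camk2b, the splicing factor Rbfox1, Col12a1, Ppp2r2c and Islr2. Tac2 and Nhlh1 were higher in members than in neuroblasts as well, with log2 ratios of 1.36, 2.23 and 1.74 for Tac2 and of 0.77, 1.22 and 1.04 for Nhlh1, so that both were highest in the members among these 3 groups of cells. Neurod1, Neurod2 and Prox1, the granule cell fate factor, were lower in dividing cells than in members in each library. Their higher level in neuroblasts follows from the choice of neuroblasts, which used these 3 genes.

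**Figure D3:**
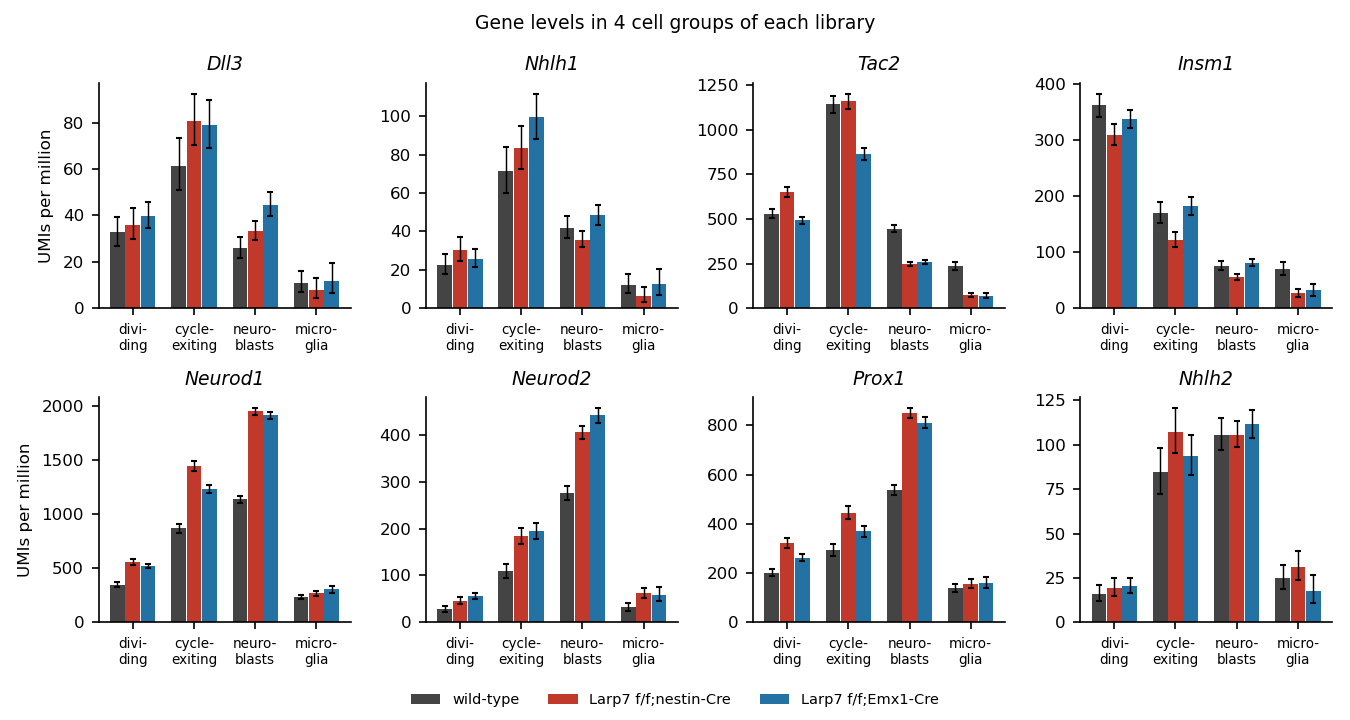
CPM (y axis) of 8 genes in dividing progenitors, cycle-exiting cells, neuroblasts and microglia (x axis) of each library, with bars for the level and lines for exact Poisson 95% intervals. Dll3, Nhlh1 and Tac2 are the highest in cycle-exiting cells, and Insm1 in dividing cells, while Nhlh2 is the lowest in dividing cells among the 3 lineage groups. Dll3 and Insm1 are genes of the rule, and Neurod1, Neurod2 and Prox1 are among the markers that chose the neuroblasts.

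Between the genotypes, Larp7 itself is given first. In members it stood at 47.1 CPM (38.0 to 57.8) in wild-type, 8.47 (5.31 to 12.8) in nestin-Cre and 14.3 (10.3 to 19.4) in Emx1-Cre. Both mutant levels lay below the wild-type interval, with log2 ratios of -2.48 (-3.22 to -1.79) and -1.72 (-2.29 to -1.17). Larp7 lies on chromosome 3 (127536714 to 127553349, GRCm38), and since reads come from the 3′ end of transcripts and not from the floxed exon, the counts show the level of Larp7 RNA and not the deletion. Dividing cells gave log2 ratios of -2.60 and -2.44 and neuroblasts of -2.20 and -2.03. Microglia, which do not arise from neural progenitors, gave -0.75 and -0.71.

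Hexim1, the P-TEFb inhibitor that binds 7SK (chromosome 11, 103116325 to 103119725), was the opposite. It measured 16.9 CPM (11.6 to 23.7) in wild-type, 53.9 (45.4 to 63.6) in nestin-Cre and 56.9 (48.5 to 66.3) in Emx1-Cre members, with log2 ratios of 1.67 (1.12 to 2.27) and 1.75 (1.20 to 2.34). The mutant libraries were alike and both above wild-type. In dividing cells the ratios were 1.20 and 1.04, in neuroblasts 1.08 and 1.03 and in microglia 0.93 and 0.60. After thinning, Hexim1 was present in 2.12%, 7.91% and 7.14% of members and in 6.18%, 8.82% and 7.22% of microglia, so that microglia held it at least as often as members in each library. Of the other genes of the complex, Cdk9, the kinase, was at 60.4, 33.9 and 46.8 CPM (log2 ratios -0.83, -1.25 to -0.42, and -0.37, -0.74 to -0.00), and Aff4, a scaffold of the super elongation complex, at 132.2, 174.1 and 160.6 (0.40 and 0.28, with nestin-Cre between -0.15 and 0.67 over the settings tried). The intervals of Mepce, which caps 7SK, and of the cyclins Ccnt1 and Ccnt2 included 0 in both comparisons, and Hexim2 and Ell2 had fewer than 100 UMIs.

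Across all genes, 764 of 7908 (9.66%) were at least 1.5-fold higher and 543 (6.87%) at least 1.5-fold lower in nestin-Cre than in wild-type members (16.5% in either direction), and 523 (6.61%) were higher and 261 (3.30%) lower in Emx1-Cre members (9.91% in either direction). The median log2 ratio of all genes was 0.02 and 0.06, and 52.2% and 57.5% of all genes lay above wild-type. Both comparisons share the wild-type library, so that whatever sets that library apart enters both, and the values of the mutants are given side by side. In the gene lists that follow, a member of a list is measured when it has at least 100 UMIs over the members of the 3 libraries.

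Most proneural and neurogenic factors were higher in the mutant members, although single factors were lower, such as Hes6 (-0.53 and -0.40). Of 25 factors 20 were measured, and 16 lay above wild-type in nestin-Cre (median log2 ratio 0.27) and 16 in Emx1-Cre (0.28), beside 52.2% and 57.5% of all genes. At least 1.5-fold higher were 3 and 2, beside 9.66% and 6.61% of all genes. At least 1.5-fold lower were 1 and 0, beside 6.87% and 3.30% of all genes. In microglia of the same libraries the median over these genes was -0.71 and -0.49. Neurod1 measured 869.3 (828.5 to 911.7), 1444.6 (1398.7 to 1491.6) and 1232.7 (1192.4 to 1274.1) CPM in wild-type, nestin-Cre and Emx1-Cre members. The 3 intervals did not overlap, and the log2 ratios were 0.73 (0.65 to 0.82) and 0.50 (0.42 to 0.59). After thinning, Neurod1 was present in 66.7%, 79.3% and 73.0% of members, against 22.1%, 15.4% and 12.5% of microglia.

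Neurod2, at 108.6, 184.1 and 194.5 CPM, had log2 ratios of 0.76 (0.53 to 1.00) and 0.84 (0.61 to 1.08), beside 0.94 and 0.87 in microglia, where its level was 32.3 to 61.8 CPM. Zbtb18, a transcriptional repressor that acts in neuronal development, measured 474.4, 660.9 and 678.7 (0.48, 0.36 to 0.60, and 0.52, 0.40 to 0.63). Among the factors of the rule, Neurog2, which starts the neuronal program, had ratios of -0.02 and 0.19 and Neurod4 of 0.15 and 0.31 (-0.46 in nestin-Cre with every cell thinned before the rule), whereas Insm1 was lower in nestin-Cre (-0.47, -0.70 to -0.25) and not in Emx1-Cre members (0.10, -0.10 to 0.30). The higher levels thus lay in later factors of the series, such as Neurod1 and Neurod2, rather than in those by which the cells had been chosen.

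Genes of Notch signalling were too low for most comparisons. Of 6 ligands only Dll1 and Dll3 were measured. Dll1, the ligand that committed cells show to neighbours, had 9.73, 15.4 and 16.8 CPM (log2 ratios 0.66, -0.16 to 1.53, and 0.78, -0.01 to 1.63). Dll3, a gene of the rule, had 61.5, 80.9 and 78.9 (0.40, 0.07 to 0.73, and 0.36, 0.03 to 0.69). The fringe glycosyltransferase Mfng, also of the rule, was lower in nestin-Cre members (137.3, 93.2 and 119.4 CPM, ratios -0.56, -0.82 to -0.30, and -0.20, -0.44 to 0.03). Notch1, the measured receptor, had intervals that included 0.

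Hes5, the Notch target of stem cells, stood at 197.2, 72.4 and 99.5 CPM, with ratios of -1.45 (-1.71 to -1.19) and -0.99 (-1.21 to -0.76). In microglia Hes5 was at 264.5, 96.2 and 153.6, with ratios of -1.46 and -0.78. Thinned members held Hes5 in 12.7%, 6.47% and 7.78% of cells against 20.5%, 7.69% and 10.3% of microglia. Its UMIs in members were thus at or below the microglial background and are not read as expression. Hes1, Hey1 and Nrarp, the other measured targets, were at 16.4 to 28.2 CPM. The list had median ratios of -0.36 and -0.30, and that of Emx1-Cre lay between -1.05 and 0.21 over the settings tried.

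The genes of granule cell identity were higher in nestin-Cre members in 16 of 16 measured (of 20, median log2 ratio 0.41) and in Emx1-Cre members in 15 of 16 (0.30), 4 and 2 of them at least 1.5-fold, beside 52.2% and 57.5% of all genes above wild-type and 9.66% and 6.61% at least 1.5-fold above. The exception was Emx1 in the Emx1-Cre library. In microglia the medians were -0.48 and -0.35. Prox1 measured 293.0, 445.2 and 370.1 CPM (0.60, 0.46 to 0.75, and 0.34, 0.19 to 0.49). Under the rule applied after thinning its Emx1-Cre ratio was -0.26, with members thinned after the rule it was 0.05, and over the other settings tried it stayed above 0. Plxna2, a semaphorin receptor, measured 108.1, 196.0 and 164.1 (0.86, 0.62 to 1.10, and 0.60, 0.36 to 0.84).

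Receptors and adhesion genes of migration and guidance lay above wild-type in most cases. Of 30 genes 25 were measured, and 10 were at least 1.5-fold higher in nestin-Cre (beside 9.66% of all genes) and 7 in Emx1-Cre members (beside 6.61%), with 0 and 1 at least 1.5-fold lower. The medians were 0.40 and 0.27, beside -0.58 and -0.41 in microglia. Plxna4, a co-receptor for semaphorins, measured 36.9, 103.2 and 76.1 CPM (1.48, 1.10 to 1.88, and 1.05, 0.65 to 1.45). Nrp2, the neuropilin of class 3 semaphorins, measured 38.9, 85.5 and 63.2 (1.13 and 0.70), and Vldlr, a reelin receptor, 9.73, 23.1 and 18.9 (1.25 and 0.95). The ephrin receptor Epha5 measured 29.7, 56.6 and 55.5 (0.93 and 0.90). Plxna4, Nrp2 and Vldlr were the highest in the nestin-Cre library and Epha5 was alike in both mutants. In microglia Nrp2 stood at 54.8, 89.3 and 86.4 CPM, close to its level in members, and Epha5 at 37.5, 22.2 and 28.2. Members had less Plxna4 than neuroblasts, with log2 ratios of -1.79, -1.24 and -1.43.

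Neuronal differentiation genes differed less. Of 29 measured, 22 were above wild-type in each mutant, beside 52.2% and 57.5% of all genes, with medians of 0.25 and 0.12. The Emx1-Cre median was -0.09 with every cell thinned before the rule. Stmn2, a tubulin-binding protein of growing axons, measured 215.2, 379.3 and 307.6 CPM (0.82, 0.65 to 0.99, and 0.52, 0.35 to 0.69), with -0.52 in Emx1-Cre after thinning before the rule, whereas Tubb3 was level at 1047.1, 1084.5 and 1046.6. Summed, the 30 genes took 201.6, 206.5 and 204.6 of every 10000 UMIs in members. RNA and chromatin regulators of neurogenesis had medians of 0.22 and 0.18 over 30 genes. Rbfox1, a neuronal splicing factor, was the furthest apart at 11.8, 43.5 and 30.4 CPM (1.88, 1.23 to 2.60, and 1.37, 0.69 to 2.10), and Srrm4, which directs neuronal microexons, measured 178.8, 255.7 and 274.8 (0.52 and 0.62). Rest, the repressor of neuronal genes whose activity Srrm4 limits, was low but also above wild-type at 12.3, 25.0 and 20.2 (1.03, 0.33 to 1.77, and 0.72, 0.01 to 1.47).

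**Figure D4:**
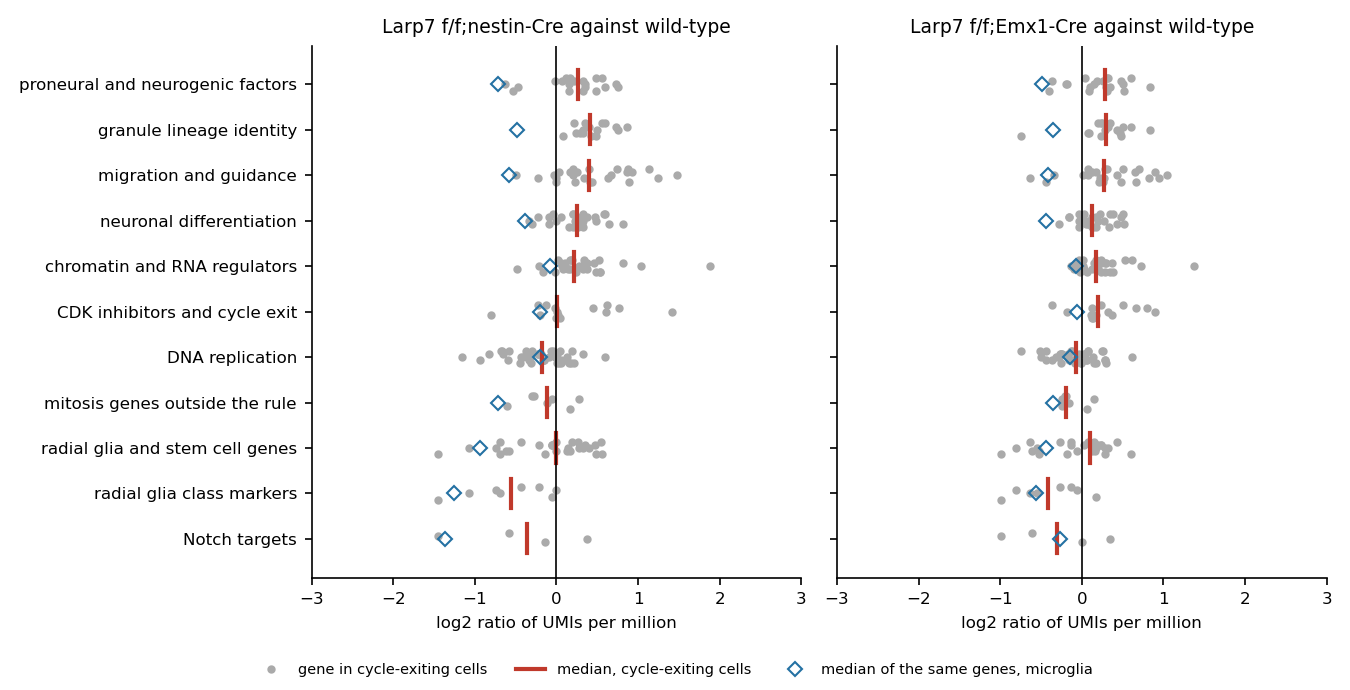
Log2 ratio of CPM against wild-type (x axis) for the measured genes of 11 lists (y axis), with grey points for genes in cycle-exiting cells, red lines for their medians and open diamonds for the median of the same genes in microglia. Medians of the proneural, granule and migration lists lie to the right of 0 (0.27, 0.41 and 0.40 in nestin-Cre) while their diamonds lie to the left, and both marks of the radial glia class markers lie to the left.

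Genes of cycle exit, a list that includes inhibitors of cyclin-dependent kinases, did not all go the same way. Cdkn1b, which encodes p27, measured 162.4, 249.6 and 231.8 CPM (0.62, 0.42 to 0.82, and 0.51, 0.32 to 0.71), beside -0.63 and -0.41 in microglia. Cdkn1c, which encodes p57, was low at 14.9, 25.4 and 25.8 (0.77 and 0.80). Plk2, a polo-like kinase, measured 21.5, 57.4 and 40.1 (1.42, 0.91 to 1.95, and 0.90, 0.38 to 1.45). Of the 14 measured genes 8 were higher and 6 lower in nestin-Cre (median 0.01) and 12 higher and 2 lower in Emx1-Cre (0.20), where the nestin-Cre median lay between -0.24 and 0.04 over the settings tried, with 4 and 3 at least 1.5-fold higher, beside 9.66% and 6.61% of all genes, and 1 and 0 at least 1.5-fold lower, beside 6.87% and 3.30%. The 1 lower gene was Gadd45g, a growth arrest gene named here after its values were seen, at 381.6, 219.1 and 429.4 CPM (-0.80, -0.96 to -0.64, and 0.17, 0.04 to 0.30), and thinned members held it in 34.8%, 20.7% and 37.8% of cells. Its microglial ratios were -1.44 and -0.13. Of 11 measured p53 targets the medians were 0.02 and 0.20 (between -0.54 and 0.40 and between -0.25 and 0.39 over the settings tried), with Sesn1 (0.58 and 0.45) and Mdm2 (0.54 and 0.43) among the higher.

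More replication genes were lower than higher in the mutant members, by small amounts that turned direction under some settings. Of 42 measured, 14 were higher and 28 lower in nestin-Cre (median -0.18) and 16 higher and 26 lower in Emx1-Cre members (-0.07), beside 3782 and 3362 of 7908 genes lower. At least 1.5-fold higher were 1 and 1, and at least 1.5-fold lower were 7 and 1, beside 6.87% and 3.30% of all genes. Over the settings tried these medians lay between -0.27 and 0.10 and between -0.13 and 0.24. The 51 genes took 18.5, 17.3 and 18.3 of every 10000 UMIs. Orc6, a subunit of the origin recognition complex, was above wild-type in both (59.9, 90.1 and 92.2 CPM, 0.59 and 0.62), and Cdt1, the licensing factor, below (24.6, 15.4 and 14.7, -0.67 and -0.75). Cdk6, the G1 kinase, measured 174.2, 226.8 and 210.2 (0.38, 0.19 to 0.58, and 0.27, 0.08 to 0.47), with -0.11 in nestin-Cre after thinning before the rule, and Tfdp2, a partner of E2F factors, 69.2, 104.0 and 116.3 (0.59 and 0.75).

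Radial glial genes were lower in the mutant members, and lower by as much or more in the microglia of the same libraries. Of the 8 markers used for radial glia-like cells, 7 were below wild-type in each mutant, with medians of -0.56 and -0.41 in members and of -1.25 and -0.56 in microglia. Fabp7, a fatty acid binding protein of radial glia, measured 1258.7, 601.2 and 861.3 CPM in members and 2634.8, 842.7 and 1515.6 in microglia. The oligodendrocyte factor gene Olig1 behaved alike, at 52.8, 16.2 and 41.9 (-1.71 and -0.33, beside -1.94 and -0.75 in microglia). The wider list of 28 measured radial glia and stem cell genes had medians of 0.00 and 0.10, and of -0.94 and -0.44 in microglia. In members 6 and 4 of them were at least 1.5-fold lower, beside 6.87% and 3.30% of all genes. At least 1.5-fold higher were 0 and 1, beside 9.66% and 6.61%. The 5 self-renewal factors that the study singled out on these samples, and which are no independent evidence of direction, had medians of 0.28 and 0.17, with 3 and 5 of them above wild-type.

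**Figure D5:**
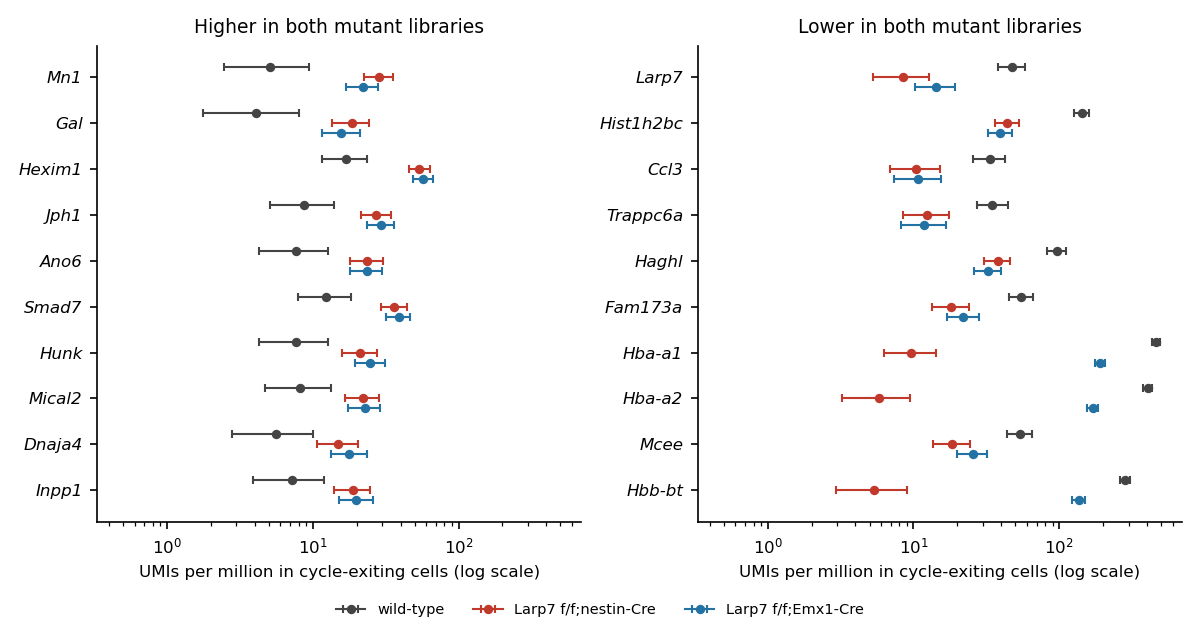
CPM (log x axis) of the 10 genes furthest above and the 10 furthest below wild-type in both mutant libraries, 1 row per gene, with points for the level and lines for exact Poisson 95% intervals. The mutant points of Hexim1 lie at 53.9 and 56.9 against 16.9 in wild-type, and those of Larp7 at 8.47 and 14.3 against 47.1.

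The largest differences in both mutants mixed neural and other genes. Mn1, a transcriptional coregulator, was the furthest above wild-type at 5.12, 28.5 and 22.0 CPM (2.48, 1.52 to 3.59, and 2.10, 1.13 to 3.23), and it was higher still in neuroblasts, at 19.7, 55.4 and 45.3. Gal, the neuropeptide galanin, followed at 4.10, 18.5 and 15.7 (2.17 and 1.94), with 20.5, 105.6 and 71.8 in neuroblasts and microglial ratios of 2.10 and 1.96 at 2.34 to 10.0 CPM. Smad7, an inhibitor of TGF-beta and BMP signals, stood at 12.3, 36.2 and 38.8 (1.56, 0.90 to 2.27, and 1.66, 1.01 to 2.36). The remaining 6 beside Hexim1 were Jph1, a junctophilin (1.65 and 1.75), the lipid scramblase Ano6 (1.61 and 1.61), the kinase Hunk (1.46 and 1.69), Mical2, which oxidizes actin (1.42 and 1.47), the chaperone Dnaja4 (1.41 and 1.66) and Inpp1, an inositol phosphatase (1.40 and 1.47). Microglial ratios were 0.91 and 1.46 for Mn1, 1.00 and 1.24 for Hunk and 0.75 and 0.32 for Smad7, and those of Jph1, Ano6, Mical2, Dnaja4 and Inpp1 lay between -0.76 and 0.41.

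Below wild-type in both, after Larp7, was the histone gene Hist1h2bc at 142.9, 43.9 and 39.5 CPM (-1.70, -2.03 to -1.38, and -1.86, -2.19 to -1.54). Haghl, a glyoxalase-like gene, measured 95.8, 37.7 and 32.5 (-1.34 and -1.56), beside -1.30 in both comparisons in microglia. Trappc6a, a vesicle tethering subunit, measured 34.8, 12.3 and 11.9 (-1.50 and -1.55), Fam173a 54.8, 18.1 and 22.0 (-1.60 and -1.32) and Mcee, an enzyme of propionate breakdown, 53.8, 18.5 and 25.5 (-1.54 and -1.08). Microglial ratios of Trappc6a and Fam173a were between -0.12 and 0.13. Ccl3, a chemokine of microglia, was at 33.3, 10.4 and 10.8 in members and at 1805.2, 1738.2 and 2155.0 in microglia. The globin genes Hba-a1, Hba-a2 and Hbb-bt of red blood cells closed the list, with Hba-a1 at 459.5, 9.63 and 190.3. The Emx1-Cre ratio of Hba-a1 was -1.27 over all members and 4.22 over members with at least 3 progenitor genes. UMIs of at least 2 globin genes were in 41, 2 and 13 members.

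Between the mutants, 201 of 7908 genes (2.54%) were at least 1.5-fold higher and 115 (1.45%) at least 1.5-fold lower in Emx1-Cre than in nestin-Cre members, fewer than in either comparison with wild-type. Beside the globin genes, the imprinted noncoding RNA Meg3 was higher in Emx1-Cre (33.8, 11.6 and 36.3 CPM in wild-type, nestin-Cre and Emx1-Cre). Lower were the histone gene Hist1h2ap (75.8, 41.2 and 14.0), Fam101b (14.9, 25.4 and 9.78), Dock3 (11.3, 26.2 and 10.5) and the Kit ligand Kitl (8.71, 31.6 and 14.7). Jun, an immediate early gene, was lower in the nestin-Cre library (361.7, 210.7 and 333.4, ratios -0.78, -0.94 to -0.62, and -0.12, -0.26 to 0.03).

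Long genes were higher and short genes lower in mutant members. Gene length, taken from the GRCm38 annotation for 7559 of the 7908 genes (95.6%), was not used to choose cells. From the shortest to the longest of 4 equal groups of genes, the median log2 ratio of nestin-Cre to wild-type members was -0.16, -0.06, 0.07 and 0.26, and that of Emx1-Cre was -0.06, 0.02, 0.09 and 0.18. Genes at least 1.5-fold higher numbered 82, 102, 183 and 358 over these groups in nestin-Cre members, and genes at least 1.5-fold lower 222, 161, 90 and 30. The median length was 56.0 kb for the higher and 12.3 kb for the lower genes in nestin-Cre, 40.4 and 13.9 kb in Emx1-Cre, and 24.6 kb over all. Dividing cells and neuroblasts gave like values in the longest group, 0.24 and 0.23 for nestin-Cre and 0.21 and 0.18 for Emx1-Cre. In microglia the groups gave -0.21, -0.12, -0.03 and 0.02 in nestin-Cre and -0.13, -0.05, 0.00 and 0.03 in Emx1-Cre, an order of the same direction with a smaller span. The background RNA of the libraries also differed, and its part was not tested.

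Members differed in how often they held markers of other cell types, some of which the granule lineage shares. UMIs of at least 2 pyramidal neuron markers were present in 177, 286 and 288 members of the wild-type, nestin-Cre and Emx1-Cre libraries, and of at least 2 astrocyte markers in 133, 128 and 129. UMIs of at least 2 of 10 microglial markers were present in 32, 17 and 14 members, and 15, 5 and 8 members met the full microglial rule. The summed level of the 10 microglial markers was 2.39, 1.74 and 1.98 per 10000 UMIs in members against 12.4, 14.9 and 8.12 over all cells. Interneuron markers took 0.0820, 0.0809 and 0.0314 per 10000, and Dlx6 had 0 UMIs in the members of all 3 libraries. The Cajal-Retzius list was held by 103, 163 and 156 members, and it contains Calb2 and Nhlh2, which newly born granule cells also express. Calb2 stood at 582.5, 701.7 and 661.9 CPM in members.

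UMIs of a stem cell factor and of a neuronal factor were found together in some members. In members thinned to 1500 UMIs, Sox2 and Neurod1 were found together in 17.4% (14.1 to 21.1) of wild-type, 20.0% (16.7 to 23.5) of nestin-Cre and 21.3% (18.1 to 24.7) of Emx1-Cre cells. Neurod1 without Sox2 was found in 49.3% (44.7 to 53.9), 59.4% (55.1 to 63.5) and 51.7% (47.8 to 55.7), and neither in 22.1% (18.4 to 26.1), 13.1% (10.4 to 16.2) and 16.7% (13.8 to 19.8). The nestin-Cre library thus had the most cells with Neurod1 alone and the fewest with neither. Nhlh1, present in 12.5%, 11.2% and 14.0% of thinned members, was seen with Sox2 in 2.76%, 3.60% and 3.97% of cells. Counted alone, Sox2 was present in 28.7%, 27.5% and 31.6% of thinned members and in 20.5%, 5.88% and 10.3% of microglia. Neurod1 was present in 66.7%, 79.3% and 73.0% of thinned members and in 22.1%, 15.4% and 12.5% of microglia. Whether pairs were more frequent than these single shares or background RNA would give was not tested. At 1500 UMIs a gene that is not seen in a cell may still be expressed there.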

How the data were processed

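Dentate gyri of P7 mice were microdissected, dissociated into single cells and loaded on the 10x Chromium 3′ platform. Per the file headers and the study's methods, the authors made UMI counts per gene and barcode with Cell Ranger (4.0.0 in the header, a later version in the methods) on the mm10 build, and these were used as deposited, with 27998 genes and whole counts. Titles give the groups. The other of the 12 samples of the series are bulk RNA, ATAC and CUT&Tag samples, which were not used here. The members and lists were chosen with earlier results of these data known, so no pattern counts as independent support.

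Cells were filtered and gated as described in the report, with dividing cells from the same gate with at least 2 cycle genes. Neuroblasts held no Eomes UMI, at most 1 cycle gene and at least 4 of 9 markers (Dcx, Igfbpl1, Calb2, Neurod1, Neurod2, Neurod6, Prox1, Stmn2 and Tubb3), and microglia at least 4 of 10 markers. Microglial CPM, ratios and median UMIs are of all 841, 519 and 297 such cells, some of which also passed the progenitor gate. Shares of thinned microglia leave those out, which kept 801, 505 and 280 cells before thinning. UMIs were summed per library and class and given as CPM with exact Poisson intervals. Log2 ratios have exact conditional binomial intervals, shares exact Clopper-Pearson intervals and differences of shares intervals for independent proportions, all at 95% and for counting error only. Genes with at least 100 UMIs over the members (7908) were described at 1.5-fold, with no test, since each genotype has 1 library. For thinning, 1500 UMIs were drawn per cell without replacement. Likely doublets were not removed from the main values. Cells in the top 6% of Scrublet scores (37, 56 and 55 members) were left out as an alternative. The sum and ratio steps were tested on simulated data.

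Named genes are the genes of the rule and label, the 7SK and P-TEFb genes, the 10 furthest above and below wild-type by the smaller of the 2 log2 ratios, up to 4 per list by the largest mean ratio, the 5 furthest apart each way between the mutants, and the 12 and 8 furthest from dividing cells and neuroblasts each way. Predicted genes without a name were left out, and a few genes that the rule names are not reported here. Emx1, Sox2, Gadd45g, Hes6, Prox1 and Tubb3 were also named where the text uses them, after their values were seen. Alternatives were other limits of the rule, thinning, other minimums, totals and scalings (TMM in edgeR 4.0.16), and leaving out doublet scores, shared barcodes or cells with other markers. Python 3.11.15, numpy 2.4.6, scipy 1.17.1, pandas 2.3.3, scanpy 1.11.5, matplotlib 3.10.9 and R 4.3.3 were used.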

Additional observations from a re-analysis of the deposited data

Results flagged for a closer look

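Of the 7908 genes measured in members, only Fam101b lay at least 1.5-fold from wild-type in opposite directions in the mutants, with a log2 ratio of 0.77 in nestin-Cre and of -0.60 in Emx1-Cre members. It rested on 29, 66 and 28 UMIs in the wild-type, nestin-Cre and Emx1-Cre libraries, and the Emx1-Cre interval of -1.41 to 0.20 included 0. The difference between the mutants was not tested, since each genotype has 1 library.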

How the results depend on the processing

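No paired analysis was possible because each genotype has 1 library and no result comes from a test. With every cell thinned before the rule, the cycle-exiting share of gated cells differed from wild-type by 19.9 points in nestin-Cre and 9.68 in Emx1-Cre, with 160, 187 and 236 members in the wild-type, nestin-Cre and Emx1-Cre libraries, and genes at least 1.5-fold higher and lower numbered 109 and 86 (nestin-Cre), 57 and 38 (Emx1-Cre), 52 and 45 (Emx1-Cre against nestin-Cre) and 53 and 38 (against dividing cells in every library). Fewer genes were measured there, 1514 in place of 7908. With members thinned after the rule these were 360 and 251 (nestin-Cre), 283 and 140 (Emx1-Cre) and 255 and 126 (against dividing cells). With at least 30 UMIs per gene they were 1494 and 1020, 1135 and 596, and between the mutants 607 and 456, with 532 lower than in dividing cells. With at least 300 UMIs they were 252 and 160, 132 and 63, 29 and 16, and 291 and 140 against dividing cells. Without any cycle gene there were 326 wild-type and 409 Emx1-Cre members, with 374 genes higher than in dividing cells. With at least 3 progenitor genes there were 215, 271 and 328 members, with 328 genes higher and 174 lower than in dividing cells, and the Emx1-Cre ratio of median UMIs was 1.06.

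Among log2 ratios at least 1.5-fold from 0, those that changed sign were of globin and a few low genes. The median of the haemoglobin list in Emx1-Cre against wild-type was 0.62 when thinned before the rule, 4.03 with at least 3 progenitor genes and 1.58 without cells holding other markers, and -0.45 against nestin-Cre without any cycle gene. In the same 3 settings Hba-a1 was at 0.45, 4.22 and 1.59, Hba-a2 at 0.76, 3.96 and 1.57, and Hbb-bs at 0.62, 3.53 and 1.37, and Hbb-bt was at 4.11 and 1.87 in the last 2. Hes1 was at 0.14 in Emx1-Cre with up to 2 cycle genes, C1qb at 0.17 in nestin-Cre without a cycle gene, and Fam101b at 0.17 in Emx1-Cre as a mean over cells. The cause of these changes was not tested. In all, 2963 of 3173 values of named genes and 1159 of 1290 list medians stayed within the interval of the reported value. These totals pool unlike settings. TMM factors, other totals, more than 1000 genes per cell and shared barcodes left out each kept all 326 values of named genes. With every cell thinned before the rule, 36 values of named genes stayed, 32 left the interval and 3 changed sign. Of list medians 56 stayed there, 24 left the interval and 1 changed sign. TMM factors and other totals shifted the median of all genes by at most 0.06.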
